A study of Mus musculus with 6 samples.

Results

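The genes described here encode the structural proteins and lipid enzymes of peripheral myelin, with the adhesion, nodal and neuropathy genes of the Schwann cells that make it. The 30 genes were chosen by name from their known roles, with earlier results of these data known. They were found by symbol among the 55401 genes of the deposited count table. All 30 were in the table and all 30 passed the filter on low counts. Their transcripts were measured by bulk RNA sequencing in the inner ear of mice mutant for Pou3f4 (genotype Pou3f4y/-, written KO here, n = 3 libraries) and of wild-type mice (WT, n = 3 libraries). Pou3f4 encodes a POU-domain factor made by mesenchymal cells that surround the labyrinth, and its gene is X-linked. The study compared the genotypes to look for the basis of pigmentation in the mutant ear. The material is given as whole inner ear cells, and the labels give no age, sex, strain or dissection, and no treatment that differs between the groups. The sequence missing from the mutant allele is not given, nor whether the libraries came from separate animals, so p-values measure only the spread between these libraries.

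Schwann cells wrap the peripheral axons of the spiral and vestibular ganglia in a spiral of membrane that is compacted by adhesive proteins and is rich in galactolipids. Where the auditory nerve nears the brainstem, oligodendrocytes take over and build central myelin with a partly shared set of genes. Mbp, Mag, Cnp, Mal, Ugt8a, Gal3st1 and Fa2h are used by both cell types, whereas Prx, Drp2, Pmp2 and Ncmap are known mainly from Schwann cells. In a bulk sample, fewer cells of a type and less RNA per cell cannot be told apart.

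Library totals lay between 18883922 and 23323953 counts in KO and between 18409409 and 19133386 counts in WT. At these depths a count of 0 allowed 0.131 to 0.168 CPM (counts per 1e+06 of the library size, scaled by TMM), a limit of counting error only. Pou3f4 held 45, 28 and 30 counts in the KO libraries, against 1044, 2140 and 2233 counts in the WT libraries, so it matched every label. WT replicate 1 stood apart from the other WT libraries. It had 81.5 CPM summed over 10 oligodendrocyte markers, against 361 and 457 CPM in WT replicates 2 and 3 and 174 to 221 CPM in KO. It also held 521 CPM of 6 basal keratinocyte markers, against 1.56 to 12.2 CPM in every other library. Skeletal muscle markers summed to 22.6, 682 and 33.4 CPM in KO replicates 1 to 3 and to 5134, 117 and 8782 CPM in WT replicates 1 to 3. KO replicates 2 and 3 and WT replicates 1 and 2 held 9143 to 15783 Xist counts, and KO replicate 1 and WT replicate 3 held Y-linked counts, so the genotypes shared the same mix although the label y/- is that of a male.

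Of the 30 myelin genes, 3 fell in KO and 0 rose in the quasi-likelihood test of edgeR, with p-values adjusted over all 19687 genes tested. The 3 were Pmp22, Prx and Fa2h. Over all genes, 0.183% were called lower and 0.213% higher. At an unadjusted p under 0.05, 18 of the 30 were lower and 0 higher, and 10.9% of all genes were lower. Fold changes below 0 were seen for 28 of the 30, against 51.0% of all genes, and the median log2 fold change (KO over WT) was −0.69, against −0.01 over all genes. In 15 of the 30 every KO library lay below every WT library, as in 12.7% of all genes, and in 0 did every KO library lie above, as in 15.0% of all genes. The count of calls depended on the library: it was 22 without WT replicate 1 (5.46% of all genes were then lower and 3.60% higher), 5 without WT replicate 2 (2.37% lower and 1.41% higher) and 0 without WT replicate 3 or without any 1 of the KO libraries. In those 4 fits 0 of all genes were called, and 13 to 16 of the 30 had an unadjusted p under 0.05, all with edgeR. With a term for Xist detection in the model 0 members were called as well, at nearly the same median of −0.68, and Pmp22, Prx and Fa2h had an adjusted p of 0.145 each (edgeR). DESeq2 called 16 lower and 0 higher (4.89% and 3.25% of all genes).

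The members were summed to 3600, 3936 and 3588 CPM in the KO libraries and to 4549, 7723 and 7250 CPM in the WT libraries. All KO sums lay below all WT sums, with WT replicate 1 nearest to KO. Abundant genes such as Mbp and Pmp22 weigh most in these sums. The median log2 CPM over the members was 5.96, 6.01 and 5.81 in KO and 6.00, 6.45 and 6.37 in WT. By that median WT replicate 1 lay within the KO range. The KO libraries were also closer to each other, with a median coefficient of variation of 5.92% over the members in KO and 29.9% in WT, against 7.69% and 17.3% over all genes tested. Within the 4 libraries that held Xist (2 per genotype), 28 of the 30 log2 ratios were below 0 with a median of −0.59, and in the pair with Y-linked counts 28 were below 0 with a median of −0.84. These are ratios of mean CPM after adding 0.5 CPM, with no test. Pmp22 stood at −1.33 in the libraries with Xist and −1.11 in the pair, Prx at −0.96 and −0.94, and Fa2h at −1.89 and −1.46.

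**Figure D1:**
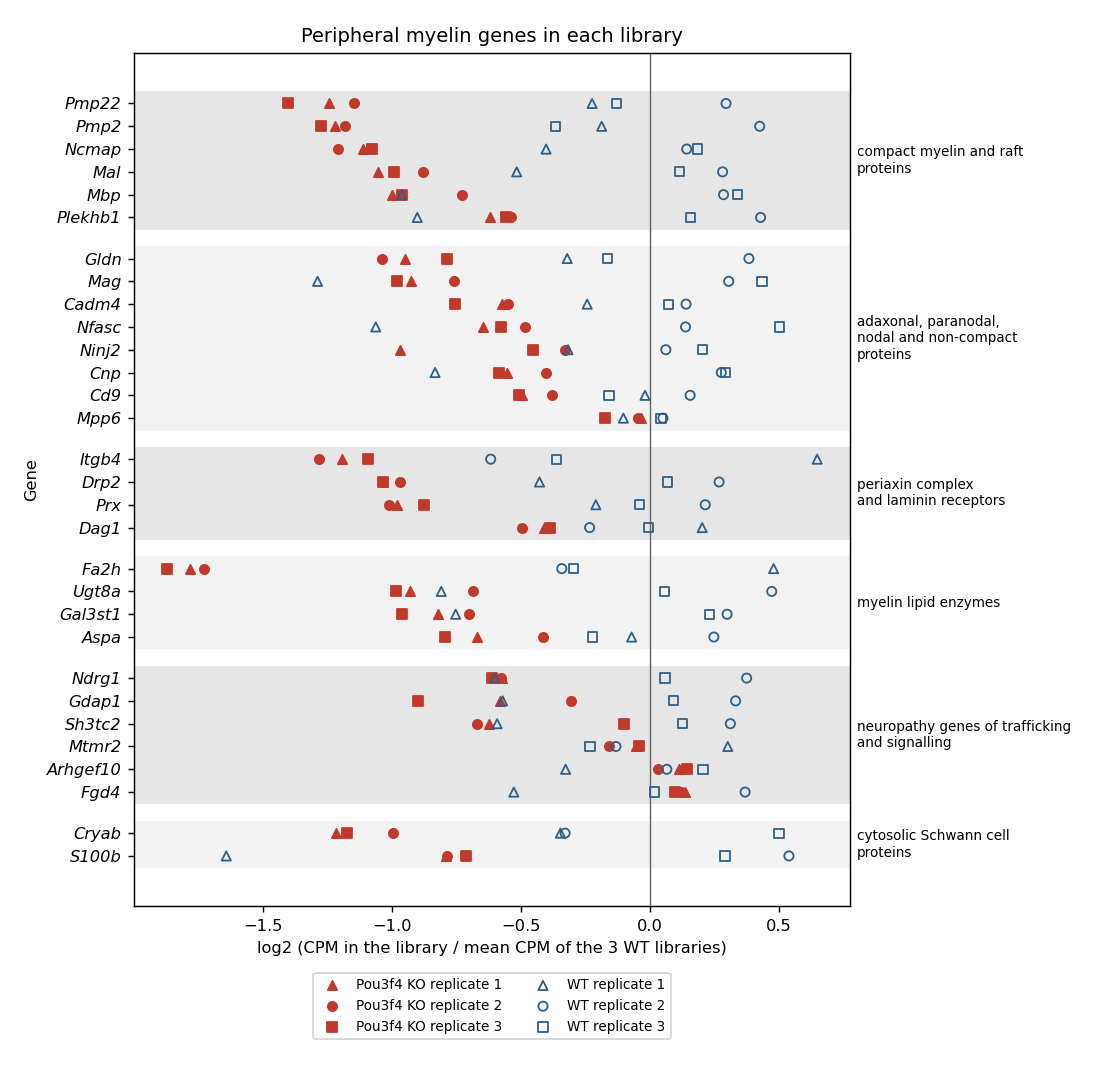
Level of each of the 30 genes in each library, as log2 of CPM over the mean of the WT libraries (x axis), grouped by role and ordered within a role by fold change. Filled symbols are KO and open symbols WT, and the open triangle of WT replicate 1 lies below all 3 KO libraries for 7 genes, among them S100b, Mag and Cnp.

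Among 6 proteins of the compact membrane and its rafts, 1 fell and all 6 changes were below 0, with a median of −1.05. Pmp22 encodes a small tetraspan protein of compact peripheral myelin whose copy number is altered in the commonest inherited neuropathy of people (ENSMUSG00000018217, mm10 chromosome 11, 63128982 to 63159547, plus strand). It stood at 476, 509.6 and 427 CPM in the KO libraries and at 966, 1384 and 1031 CPM in the WT libraries. The groups did not overlap, and Pmp22 fell 2.39-fold (log2 fold change −1.26, SE 0.16, adjusted p = 0.049, edgeR). Without WT replicate 1 its change was −1.37 and without WT replicate 2 it was −1.08, and the call was kept in both. Without WT replicate 3 it was −1.32 and was no longer called (adjusted p = 0.136, edgeR).

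Mbp, the basic protein that fuses the cytoplasmic faces of the membrane, had 1051, 1266 and 1079 CPM in KO libraries against 1078, 2559.7 and 2657 CPM in WT libraries. WT replicate 1 lay within the KO range and the other WT libraries far above it (−0.89, SE 0.33, adjusted p = 0.208, edgeR). Without WT replicate 1 Mbp was called lower (−1.22, SE 0.09, adjusted p = 0.00465, edgeR). It was not called without WT replicate 2 (−0.72, adjusted p = 0.292, edgeR) or without WT replicate 3 (−0.68, adjusted p = 0.372, edgeR). Plekhb1, a membrane-associated protein with a pleckstrin homology domain, had 84.3, 89.1 and 87.9 CPM in KO and 69.3, 174 and 145 CPM in WT (−0.57, SE 0.31, adjusted p = 0.35, edgeR). Here WT replicate 1 lay below every KO library and the other WT libraries above.

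In the other 3 membrane genes, as in 12.7% of all genes, every KO library lay below every WT library, without the 3 passing the threshold of 0.05. Ncmap, a membrane protein of Schwann cell myelin, had 24.1, 22.5 and 24.7 CPM in KO and 39.3, 57.4 and 59.1 CPM in WT (−1.13, SE 0.16, adjusted p = 0.0556, edgeR). Pmp2, a fatty acid binding protein of myelin, had 15.5, 16.0 and 15.0 CPM in KO and 31.8, 48.7 and 28.1 CPM in WT (−1.22, SE 0.21, adjusted p = 0.0674, edgeR). Mal, a proteolipid of glycolipid rafts, had 85.9, 97.0 and 89.7 CPM in KO and 125, 217 and 193 CPM in WT (−0.97, SE 0.20, adjusted p = 0.0961, edgeR). DESeq2 called all 3 lower, as it did Pmp22, Mbp and 4.89% of all genes. Over 86.9% of their length the exons of Pmp2 coincide with those of the gene model Gm37389 on the same strand. The table held 3058 counts for Pmp2 and 3065 for Gm37389, so the level of Pmp2 is uncertain.

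The periaxin complex links the outer surface of the myelin sheath to the basal lamina. In all 4 genes of the complex and its laminin receptors (median −0.98) every KO library lay below every WT library, as in 12.7% of all genes. Of the 4, 1 fell with edgeR, and DESeq2 called all 4 lower (0.183% and 4.89% of all genes). Prx encodes periaxin, the scaffold of the complex (ENSMUSG00000053198, chromosome 7, 27497388 to 27520214, plus strand). It stood at 115, 113 and 124 CPM in KO libraries and at 197, 264 and 221 CPM in WT libraries. Prx fell 1.94-fold (−0.95, SE 0.12, adjusted p = 0.049, edgeR), with values of −1.06 and −0.83 without WT replicates 1 and 2. Like Pmp22, it was not called without WT replicate 3 (−0.97, adjusted p = 0.141, edgeR). Drp2, the dystrophin-related partner that periaxin binds, had 22.2, 23.2 and 22.2 CPM in KO and 33.7, 54.7 and 47.6 CPM in WT (−1.01, SE 0.18, adjusted p = 0.0696, edgeR). Its KO libraries were nearly equal, and DESeq2 gave an adjusted p of 4.07e-05.

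Sequences before RefSeq start sites of 3 members are shown because POU-domain factors, the family of Pou3f4 and Pou3f1, bind an octamer. They are Pmp22 and Prx, the called genes with an entry, and Mtmr2, a gene whose groups overlapped and the only other member with the octamer. Pmp22 and Mtmr2 have other RefSeq starts, whose windows hold no octamer and are not shown. The Mtmr2 window shown is the one with the octamer, at the start 13765954, whereas the first start listed is 13749179. Each is the 250 bases before a RefSeq start site (GRCm38.p6, the build mm10), plus strand, 5′ to 3′. They lie at chr11:63128732-63128981 for Pmp22, chr7:27499074-27499323 for Prx and chr9:13765704-13765953 for Mtmr2. Capitals mark the octamer ATGCAAAT or, on the other strand, ATTTGCAT.
Pmp22: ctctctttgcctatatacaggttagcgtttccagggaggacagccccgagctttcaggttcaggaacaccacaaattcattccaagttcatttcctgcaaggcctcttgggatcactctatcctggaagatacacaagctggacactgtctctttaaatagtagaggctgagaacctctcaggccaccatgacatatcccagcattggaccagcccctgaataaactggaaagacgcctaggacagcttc
Prx: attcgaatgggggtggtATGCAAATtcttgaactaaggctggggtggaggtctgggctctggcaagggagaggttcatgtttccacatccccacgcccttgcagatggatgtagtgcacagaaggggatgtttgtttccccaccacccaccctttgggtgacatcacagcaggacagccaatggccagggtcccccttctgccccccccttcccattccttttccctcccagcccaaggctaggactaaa
Mtmr2: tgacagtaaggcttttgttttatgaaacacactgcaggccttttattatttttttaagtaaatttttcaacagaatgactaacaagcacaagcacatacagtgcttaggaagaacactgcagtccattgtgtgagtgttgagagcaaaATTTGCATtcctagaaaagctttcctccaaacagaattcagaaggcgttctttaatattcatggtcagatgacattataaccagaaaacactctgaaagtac
The octamer begins 233 bases before this RefSeq start of Prx and 102 bases before this start of Mtmr2, and it does not occur in the Pmp22 window shown. The Prx and Mtmr2 windows lie inside the genes as the count table delimits them (Mtmr2 from 13748410 to 13806481 on chromosome 9), while the Pmp22 window ends at the base before its gene. The RefSeq table matched 20 of the 30 members, with 36 windows of 250 bases. The octamer was in 2 of the 36, and in 1.6% of the 32851 windows of all genes. The SOX letters ACAAAG were in 8 member windows, of Cnp, Fgd4, Mag, Mpp6, Mtmr2 and Plekhb1, and in 16.5% of all windows. The EGR letters GCGNGGGCG were in 6 member windows, of Dag1, Fgd4, Gal3st1 and Mpp6, and in 4.7% of all windows. Overlapping windows of Dag1 and of Gal3st1 held the same EGR match, and those of Mag the same SOX match, so some sites were counted repeatedly. Both strands were searched, and a match of letters is a description only.

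Both laminin receptors differed from Prx and Drp2 in which WT library was highest. Dag1, the dystroglycan precursor, which most tissues express, had 246, 233 and 251 CPM in KO and 377, 279 and 326 CPM in WT (−0.43, adjusted p = 0.157, edgeR). Itgb4, the beta 4 integrin of Schwann cells and of epithelial hemidesmosomes, had 10.4, 9.72 and 11.1 CPM in KO and 37.1, 15.4 and 18.4 CPM in WT (−1.19, SE 0.33, adjusted p = 0.15, edgeR). WT replicate 1, which held the keratinocyte markers, was the highest WT library for both. Without it the change of Itgb4 was −0.72 (adjusted p = 0.027, edgeR). Without WT replicate 2 it was −1.41 (adjusted p = 0.0609, edgeR), and without WT replicate 3 it was −1.34 (adjusted p = 0.22, edgeR). The part of the keratinocyte reads in the Itgb4 values was not tested.

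Of the 4 myelin lipid enzymes 1 fell and all 4 had changes below 0 (median −0.84). Fa2h, the hydroxylase that makes 2-hydroxylated fatty acids for galactolipids (ENSMUSG00000033579, chromosome 8, 111345135 to 111393824, minus strand), stood at 15.8, 16.4 and 14.9 CPM in KO libraries. It stood at 76.0, 43.0 and 44.3 CPM in WT libraries. Every WT library lay well above every KO library, and Fa2h had the largest fitted change of the 30 genes, falling 3.46-fold (−1.79, SE 0.23, adjusted p = 0.049, edgeR). Epidermis and its glands also express Fa2h, and WT replicate 1 was again the highest. Without it the change was −1.49 (SE 0.08, adjusted p = 0.00198, edgeR), and the KO mean was 36.0% of the mean of WT replicates 2 and 3. Fa2h was not called without WT replicate 3 (−1.92, adjusted p = 0.136, edgeR) and, alone of the 3 called genes, not with limma-voom (−1.73, adjusted p = 0.0576). The part of the keratinocyte reads in its level was not tested.

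The next enzymes of galactolipid synthesis had the opposite arrangement within WT. Ugt8a, which adds galactose to ceramide, had 74.3, 88.0 and 71.5 CPM in KO and 80.8, 196 and 147 CPM in WT (−0.86, SE 0.30, adjusted p = 0.193, edgeR). Gal3st1, which sulfates the product to sulfatide, had 11.7, 12.7 and 10.7 CPM in KO and 12.3, 25.5 and 24.3 CPM in WT (−0.82, SE 0.28, adjusted p = 0.185, edgeR). For both genes WT replicate 1 lay within the KO range, and without it both were called lower (−1.15 and −1.10, adjusted p = 0.0127 and 0.009, edgeR). Neither was called without WT replicate 2 (adjusted p = 0.265 and 0.256, edgeR) or without WT replicate 3 (adjusted p = 0.319 and 0.332, edgeR). Aspa, which releases acetate from N-acetylaspartate in oligodendrocytes, had 7.01, 8.37 and 6.44 CPM in KO and 10.6, 13.2 and 9.56 CPM in WT (−0.61, adjusted p = 0.164, edgeR).

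**Figure D2:**
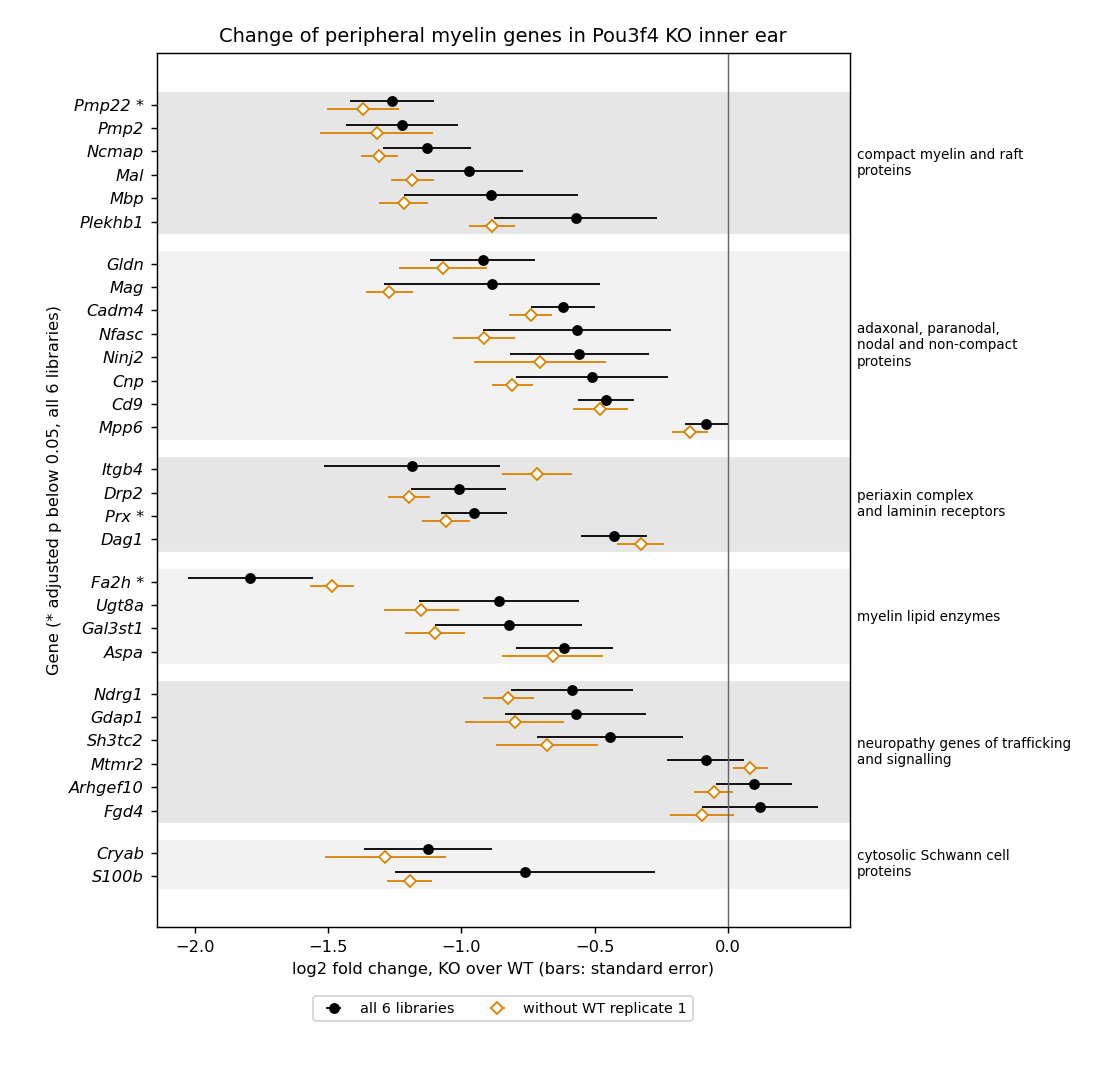
Log2 fold change of each gene (KO over WT, x axis) with its standard error, from all 6 libraries (black circles) and without WT replicate 1 (open diamonds), grouped by role. Without WT replicate 1 the changes of Mbp, Mag, S100b and Ugt8a lie between −1.27 and −1.15, near those of Pmp22 and Prx, while Fgd4, Arhgef10 and Mtmr2 stay near 0. With WT replicate 2 or WT replicate 3 left out instead, Mbp, Mag, S100b and Ugt8a were not called (edgeR).

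Among the 8 genes of adaxonal, paranodal and nodal contacts and non-compact membrane, 0 passed the threshold with edgeR (3 had an unadjusted p under 0.05, and DESeq2 called 3), and all 8 changes were below 0 (median −0.56). Gldn, the Schwann cell ligand that gathers sodium channels at nodes, had 17.9, 16.9 and 20.1 CPM in KO and 27.8, 45.2 and 30.9 CPM in WT (−0.92, SE 0.20, adjusted p = 0.103, edgeR). Cadm4, the Schwann cell adhesion molecule of the internode, had 62.2, 63.2 and 54.8 CPM in KO and 78.2, 102 and 97.2 CPM in WT (−0.62, SE 0.12, adjusted p = 0.0879, edgeR). Cd9, a tetraspanin of many cell types, had 295, 319 and 292 CPM in KO and 409.8, 463 and 372 CPM in WT (−0.46, adjusted p = 0.115, edgeR). These were the 3 that DESeq2 called lower, and their groups did not overlap. Of all genes DESeq2 called 4.89% lower, and in 12.7% every KO library lay below every WT library. Gm26728, on the opposite strand, overlaps 10.7% of the exons of Cd9.

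Mag, the adaxonal adhesion protein that binds axonal gangliosides, had 58.1, 65.2 and 56.0 CPM in KO and 45.3, 137 and 149 CPM in WT (−0.89, SE 0.41, adjusted p = 0.285, edgeR). Cnp, a phosphodiesterase that keeps cytoplasmic channels open, had 224, 249 and 219.6 CPM in KO and 185, 399 and 403 CPM in WT (−0.51, adjusted p = 0.369, edgeR). Nfasc, whose glial isoform forms the paranode and whose neuronal isoform sits at the node, had 69.1, 77.3 and 72.4 CPM in KO and 51.8, 119 and 153 CPM in WT (−0.57, adjusted p = 0.414, edgeR). In these 3 genes WT replicate 1 lay below every KO library, and the other WT libraries above every KO library. Gene counts do not separate the isoforms of Nfasc. Ninj2, an adhesion protein, was low, at 1.18 to 1.83 CPM in KO and 1.84 to 2.64 CPM in WT (−0.56, adjusted p = 0.295, edgeR). Mpp6, a membrane scaffold that binds Cadm4, stood at 56.3 to 62.0 CPM in KO and 59.1 to 65.7 CPM in WT (−0.08, SE 0.08, adjusted p = 0.605, edgeR).

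The 6 neuropathy genes that act in trafficking and signalling had a median of −0.26. In 0 of them, against 12.7% of all genes, did every KO library lie below every WT library. That difference from the structural genes was not tested. With edgeR 0 passed (1 at an unadjusted p under 0.05), and DESeq2 called 0. Mtmr2, a phosphoinositide phosphatase, had 79.2, 73.9 and 79.9 CPM in KO and 102, 75.2 and 70.1 CPM in WT (−0.08, SE 0.14, adjusted p = 0.783, edgeR). Fgd4, an activator of the small GTPase Cdc42, had 19.8, 19.6 and 19.3 CPM in KO and 12.5, 23.3 and 18.3 CPM in WT (0.12, SE 0.22, adjusted p = 0.793, edgeR). Arhgef10, a guanine nucleotide exchange factor, had 43.9, 41.5 and 44.9 CPM in KO and 32.4, 42.5 and 46.9 CPM in WT (0.10, SE 0.14, adjusted p = 0.735, edgeR). The fitted changes of these 3 genes were close to 0 and changed sign without WT replicate 1.

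Ndrg1, an N-myc downstream regulated protein abundant in Schwann cell cytoplasm, had 164, 163 and 159.7 CPM in KO and 161, 316 and 254 CPM in WT (−0.59, SE 0.23, adjusted p = 0.23, edgeR). Gdap1, a mitochondrial outer membrane protein that neurons also make, had 11.9, 14.4 and 9.52 CPM in KO and 12.0, 22.4 and 18.9 CPM in WT (−0.57, adjusted p = 0.287, edgeR). Sh3tc2, an endosomal adaptor of Schwann cells, had 9.18, 8.89 and 13.2 CPM in KO and 9.39, 17.6 and 15.5 CPM in WT (−0.44, adjusted p = 0.412, edgeR). Ndrg1 and Gdap1 were called lower without WT replicate 1 (−0.82 and −0.80), and Sh3tc2 was not (−0.68, adjusted p = 0.0776, edgeR). None of these genes was called without WT replicate 2 (adjusted p = 0.331 to 0.633, edgeR) or without WT replicate 3 (adjusted p = 0.359 to 0.577, edgeR).

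Of the 2 cytosolic proteins, S100b, a calcium-binding protein of all Schwann cells and of other glia, had the widest spread within WT of the 30 genes, a coefficient of variation of 59.9%. It had 169, 169 and 178 CPM in KO and 93.5, 424 and 357 CPM in WT (−0.76, SE 0.49, adjusted p = 0.427, edgeR). Without WT replicate 1 it was called lower (−1.19, SE 0.08, adjusted p = 0.00374, edgeR). S100b was not called without WT replicate 2 (−0.39, adjusted p = 0.684, edgeR) or without WT replicate 3 (−0.59, adjusted p = 0.614, edgeR). Cryab, a small heat shock protein that muscle and lens also make in large amounts, had 73.8, 86.0 and 76.0 CPM in KO and 135, 137 and 243 CPM in WT (−1.13, SE 0.24, adjusted p = 0.102, edgeR). WT replicate 3, its highest library, also had the most muscle marker reads, whereas WT replicates 1 and 2 had 5134 and 117 CPM of them at nearly equal Cryab. Without WT replicate 3 the change of Cryab was −0.79. The part of muscle in the Cryab values was not tested. Hspb2, on the opposite strand, overlaps 17.0% of the exons of Cryab, with 736 counts in all against 14894 for Cryab. Opposite-strand genes overlap 1.0% to 7.7% of the exons of Itgb4, Ndrg1, Prx, Cnp and Arhgef10.

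Levels were compared between genes as CPM per kilobase of annotated exon. On that scale Pmp22 was the most abundant of the 30, with means of 200.02 in KO and 479 in WT. It was followed in WT by Mbp (134 in KO and 248 in WT), Cd9 (148 in KO and 203 in WT) and S100b (116 in KO and 197 in WT). In KO the order of Mbp and Cd9 was the other way round. Mbp varied by 885 CPM (SD) around a mean of 2098 CPM in WT, so its place next to Cd9 is within the spread of the libraries. At the low end stood Fgd4 (1.12 in KO and 1.03 in WT) and Aspa (1.22 in KO and 1.87 in WT). The exon length is that of all annotated isoforms together, so a gene with long exons that these cells do not use is placed too low. Fgd4 had 17.5 kb and Nfasc 14.1 kb of exon.

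**Figure D3:**
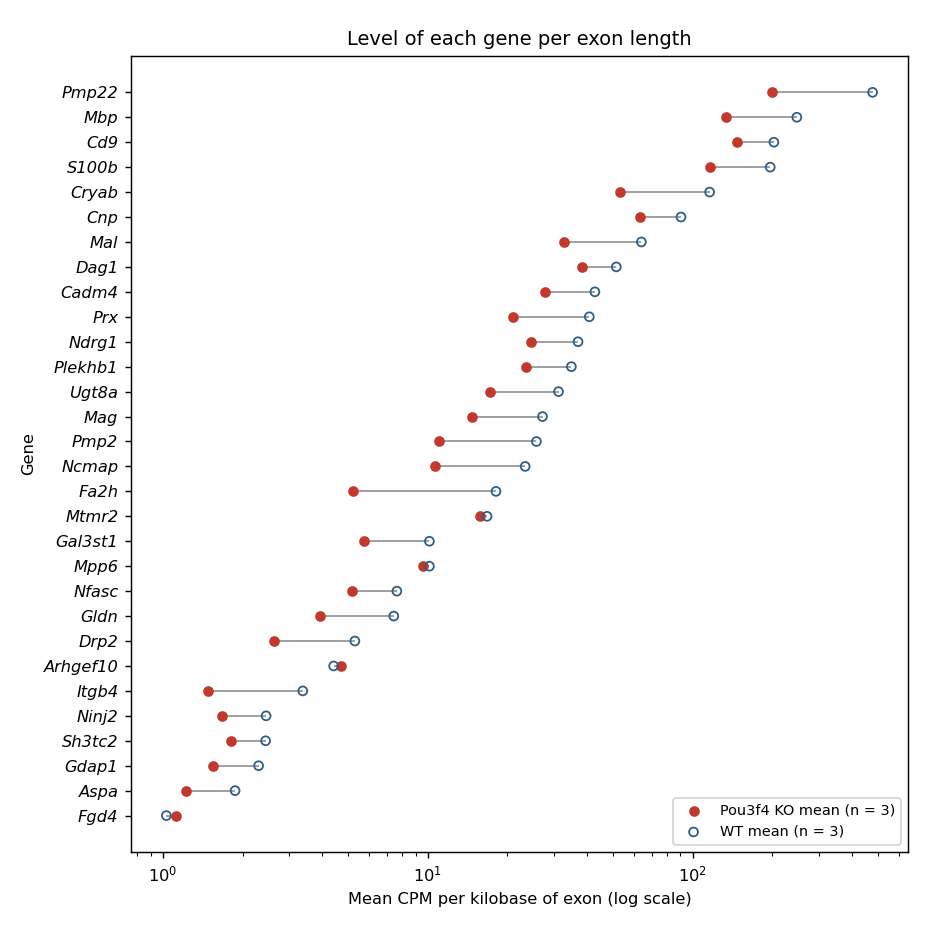
Mean level of each gene per kilobase of exon (x axis, log scale) in KO (filled red circles) and WT (open blue circles), ordered by the WT level. The line between the circles is longest for Fa2h, at 5.22 in KO and 18.1 in WT.

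WT replicate 1 was the lowest WT library for 23 of the 30 genes and the highest for 4. Relative to the mean of WT replicates 2 and 3 its level ranged from 23.9% for S100b to 219% for Itgb4, with a median of 69.3%. Mag stood at 31.6%, Nfasc at 38.0%, Mbp at 41.3%, Plekhb1 at 43.5% and Cnp at 46.1%, and the summed oligodendrocyte markers stood at 19.9%. Pmp22 stood at 80.0%, Prx at 81.1%, Pmp2 at 82.9%, Gldn at 72.9%, Ncmap at 67.5% and Drp2 at 66.0%. Mal, which both cell types use, stood at 60.8%. The sum of 8 further genes of myelinating Schwann cells stood at 68.1%, with single genes from 26.9% for Gjb1 to 135% for Lgi4. Fa2h, another gene that oligodendrocytes share, stood at 174%, and Aspa at 93.1%. Mobp, a protein of central myelin, had 97.6, 123 and 102 CPM in KO and 33.8, 225 and 288 CPM in WT, and Olig1, a transcription factor of oligodendrocytes, had 29.4, 32.6 and 17.4 CPM in KO and 12.3, 33.2 and 54.1 CPM in WT. Of the 10 oligodendrocyte markers 0 were called with edgeR (0 with p under 0.05 before adjustment) and 0 with DESeq2, which gave no adjusted p for Opalin and Hapln2. Of the 10, 9 had changes below 0 (median −0.60), and 5 were called lower without WT replicate 1 (5.46% of all genes). No marker of this list was at 0 over the libraries. The part of central glia in the values of the shared genes was not tested.

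Markers of neurons were measured beside them, since their axons carry the myelin. All 11 had changes below 0 (median −0.79), and they summed to 1203, 1313 and 949 CPM in KO and to 1244, 2679.5 and 1765 CPM in WT. Thy1, a surface glycoprotein of neurons, was the only one called over all genes with edgeR, at 37.7, 43.8 and 34.0 CPM in KO and 71.5, 82.9 and 68.3 CPM in WT (−0.95, SE 0.12, adjusted p = 0.049). Its level in WT replicate 1 lay between the other WT libraries. The summed neuron markers in WT replicate 1 stood at 56.0% of the mean of WT replicates 2 and 3. DESeq2 called 5 of the 11 lower (4.89% of all genes), and the part of neurons in the myelin values was not tested. All 10 muscle markers had changes below 0 (median −4.09), and 0 were called with edgeR (4 with p under 0.05 before adjustment) and 0 with DESeq2. All 4 keratinocyte markers tested had changes below 0 (median −5.42), and 0 were called with edgeR (3 with p under 0.05 before adjustment) and 1, Krt15, with DESeq2. Simple epithelium markers summed to 175 to 204 CPM in KO and 163 to 214 CPM in WT, with 0 of 6 called with edgeR (1 with p under 0.05 before adjustment, and 0 with DESeq2) and 5 of 6 changes below 0 (median −0.41). The 7 pigment cell markers summed to 99.4 to 124 CPM in KO and to 57.9, 101 and 95.4 CPM in WT replicates 1 to 3. Of the 6 tested 0 were called with edgeR (0 with p under 0.05 before adjustment, and 0 with DESeq2), and 0 had changes below 0 (median 0.30). In 3 of the 6 every KO library lay above every WT library, as in 15.0% of all genes.

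**Figure D4:**
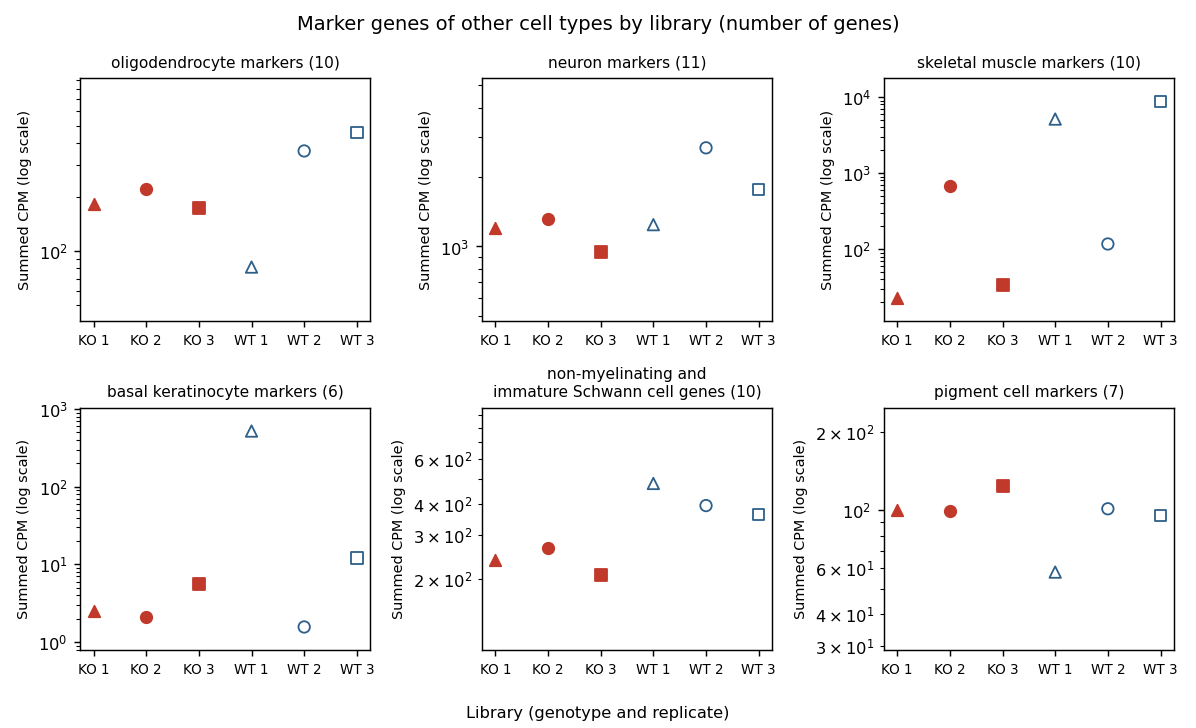
Summed CPM (y axis, log scale) of markers of other cell types in each library (x axis), with KO filled and WT open. WT replicate 1 is lowest for oligodendrocyte markers, at 81.5 CPM, and highest for basal keratinocyte markers, at 521 CPM, and muscle markers are highest in WT replicates 1 and 3.

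Of 8 further genes of myelinating Schwann cells 0 passed with edgeR (6 with p under 0.05 before adjustment), and DESeq2 called 6 lower. All 8 changes were below 0 (median −0.87), and all 8 were called lower without WT replicate 1. Of all genes 10.9% were lower at an unadjusted p under 0.05 with edgeR. DESeq2 called 4.89% of all genes lower, and edgeR called 5.46% lower without WT replicate 1. Gjc3, a glial connexin, had 49.4, 53.3 and 47.1 CPM in KO and 77.0, 104 and 84.7 CPM in WT (−0.83, SE 0.12, adjusted p = 0.0573, edgeR). Tspan2, a tetraspanin of myelinating glia, had 40.1, 51.2 and 41.8 CPM in KO and 53.0, 89.4 and 83.4 CPM in WT (−0.76, SE 0.21, adjusted p = 0.146, edgeR). In both every KO library lay below every WT library.

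Of 9 tested genes of non-myelinating and immature Schwann cells 0 passed with edgeR (6 with p under 0.05 before adjustment), DESeq2 called 5 lower, and all 9 changes were below 0 (median −0.86). Of all genes 10.9% were lower at an unadjusted p under 0.05 with edgeR, and DESeq2 called 4.89% lower. Gfap, an intermediate filament of glia, had 58.9, 76.0 and 58.0 CPM in KO and 47.9, 119.9 and 107 CPM in WT (−0.51, adjusted p = 0.423, edgeR). Ncam1, an adhesion molecule of neurons and glia, had 63.2, 62.9 and 56.2 CPM in KO and 79.9, 60.5 and 76.2 CPM in WT (−0.25, adjusted p = 0.309, edgeR). The groups overlapped for both. Ngfr, the low-affinity neurotrophin receptor, chosen after its values were seen, had 17.3, 18.6 and 13.6 CPM in KO and 56.4, 53.2 and 30.3 CPM in WT (−1.50, SE 0.25, adjusted p = 0.0655, edgeR).

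Among 14 regulators of Schwann cells, of which 13 were tested, 2 fell and 0 rose with edgeR (3 with p under 0.05 before adjustment). DESeq2 called 3 lower and 0 higher. Over all genes tested edgeR called 0.183% lower and 0.213% higher, and DESeq2 4.89% and 3.25%. Changes were below 0 for 8 of the 13 (median −0.25). In 4 of the 13 every KO library lay below every WT library, as in 12.7% of all genes. In 1, Zeb2 (0.28, SE 0.12, adjusted p = 0.259, edgeR), every KO library lay above, as in 15.0% of all genes. Pou3f1, a POU-domain factor of promyelinating Schwann cells, had 8.05, 6.89 and 6.22 CPM in KO and 16.0, 17.8 and 14.6 CPM in WT (−1.19, SE 0.15, adjusted p = 0.049, edgeR). Erbb3, the neuregulin receptor of Schwann cells, had 23.1, 22.9 and 22.7 CPM in KO and 42.2, 42.5 and 37.3 CPM in WT (−0.83, SE 0.09, adjusted p = 0.0474, edgeR). For both genes WT replicate 1 lay between the other WT libraries. Sox10, the lineage factor of Schwann cells and oligodendrocytes, chosen after its values were seen, had 39.7, 38.7 and 38.4 CPM in KO and 35.8, 69.8 and 68.6 CPM in WT (−0.58, SE 0.24, adjusted p = 0.258, edgeR). Egr2, which drives myelin genes in Schwann cells, was too low to test, at 0.131 to 0.479 CPM in KO and 0.503 to 1.02 CPM in WT.

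Of 17 partners of the myelin sheath at nodes and internodes, most of them axonal, 0 passed with edgeR (10 with p under 0.05 before adjustment, against 3867 of all 19687 genes). DESeq2 called 6 lower and 1 higher (4.89% and 3.25% of all genes). Changes were below 0 for 15 of the 17 (median −0.47). Epb41l2, a membrane skeleton protein made by many cells, had 369.9, 373 and 409 CPM in KO and 327, 323 and 341 CPM in WT (0.22, SE 0.08, adjusted p = 0.219, edgeR). Cadm1, an adhesion molecule of axons and many epithelia, had 302, 317 and 312 CPM in KO and 216, 239 and 225 CPM in WT (0.45, SE 0.08, adjusted p = 0.0696, edgeR). These were the 2 genes of the list whose KO libraries all lay above the WT libraries, as in 15.0% of all genes. Cadm1 was the gene that DESeq2 called higher. In 8 of the 17, against 12.7% of all genes, every KO library lay below every WT library. Cadm3 of the same family, chosen after its values were seen, was 1 of them. It had 37.6, 36.7 and 28.6 CPM in KO and 48.1, 65.1 and 65.1 CPM in WT (−0.79, SE 0.16, adjusted p = 0.0929, edgeR), and DESeq2 called it lower.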

How the data were processed

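Transcripts were counted in 3 KO and 3 WT libraries of mouse inner ear. Per the labels' protocols, RNA came from TRIzol extraction and a TruSeq Stranded mRNA kit gave the libraries. Per the submitters' processing notes, Trimmomatic, HISAT2, Cufflinks and HTSeq and the build mm10 were used. For the tool that made the table, its strand setting and the annotation release, the answer is not given in the sources used here. Raw read counts per gene, not normalised, were deposited by the authors.

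Counts were used as deposited. Genes were kept with filterByExpr of edgeR 4.0.16 at a minimum count of 10, TMM factors scaled the library sizes, and CPM was taken on those sizes. KO was tested against WT by glmQLFit and glmQLFTest, the quasi-likelihood functions of edgeR, in R 4.3.3, with Benjamini-Hochberg adjustment over 19687 genes and a threshold of 0.05, and the SE is the log2 fold change over the square root of F. The test was checked on simulated data. DESeq2 1.42.0 and limma 3.58.1 (voom) were among 15 alternatives, with other scalings and filters, a replicate block, an Xist term and each library left out. The limits drawn from library depth cover counting error only, whereas the SE also takes in the spread between libraries. No pair of libraries was a duplicate.

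Exon lengths and overlaps came from GENCODE M21, in which 55141 of the 55401 genes were found, 54784 with identical coordinates, and 29 of the 30 members (all but Prx) matched exactly. Every member is described. Of each of 12 other lists, up to 3 called genes or otherwise the 2 with the highest mean CPM were to be named, and of lists of other cell types some are given as sums. The members and lists were chosen with earlier results of these data known. Results of some myelin genes are not reported here.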

Additional observations from a re-analysis of the deposited data

How the results depend on the processing

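The count of myelin genes called lower was 3 with all 6 libraries. It was 16 with DESeq2, 0 with a replicate block and 0 with a term for Xist detection, and 0 to 22 with 1 library left out. The median log2 fold change was −0.61 with the block and −0.68 with the Xist term, against −0.69, and Pmp22 stood at −1.25 (adjusted p = 0.207, edgeR) and −1.26 (adjusted p = 0.145, edgeR). The count of calls was 0 without any 1 of the KO libraries or WT replicate 3, 5 without WT replicate 2 and 22 without WT replicate 1. Other scalings gave 3, no filter 4, a filter of 1 CPM 3, limma-voom 2 (all but Fa2h), and leaving out mitochondrial, haemoglobin and muscle genes 3. In none of the 15 alternatives was a member called higher. That median was −0.90 to −0.54 with 1 library left out, at −0.90 without WT replicate 1. Pou3f4 stood at −5.82 with the replicate block (adjusted p = 0.206, edgeR) and −5.89 with the Xist term (adjusted p = 0.0655), and at −6.14 to −5.71 with 1 library left out. With 1 library left out Arhgef10 ranged from −0.055 to 0.21, Fgd4 from −0.096 to 0.35 and Mtmr2 from −0.18 to 0.084, each on the other side of 0 without WT replicate 1. Of 450 values of single members over the alternatives, 393 kept side and direction, 19 lost the call, 35 gained it and these 3 changed sign. The causes were not tested. Over all genes 78 were called, against 1603 with DESeq2, 1814 without WT replicate 1, 760 without WT replicate 2, 1 with the replicate block and 0 with the Xist term (3185 at an unadjusted p under 0.05) or without WT replicate 3 or any 1 KO library (2087 to 3364 at an unadjusted p under 0.05). Same-numbered libraries deviated with correlations of −0.133, −0.288 and −0.189. With so few libraries per group these values cannot decide whether the numbers pair the samples.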

Other observations

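Of 23 enzymes of sphingolipid and fatty acid synthesis and turnover, 0 were called with edgeR (5 at an unadjusted p under 0.05), DESeq2 called 1 lower (4.89% of all genes), and 17 changes were below 0 (median −0.17). Psap, the precursor of the saposins that activate lysosomal lipid hydrolases, had 1199.8, 1175 and 1247 CPM in KO and 1078, 1209 and 1204 CPM in WT (0.05, SE 0.09, adjusted p = 0.766, edgeR). Scd2, a fatty acid desaturase abundant in myelinating glia, had 752, 772 and 713 CPM in KO and 678, 1004 and 963 CPM in WT (−0.24, SE 0.16, adjusted p = 0.428, edgeR). The groups overlapped for both. Scd1 and Elovl6, chosen after their values were seen, were highest in WT replicate 1, the library with the keratinocyte markers. Scd1, a desaturase, had 90.4, 105 and 108 CPM in KO and 647, 149 and 145 CPM in WT. Elovl6, a fatty acid elongase and the gene that DESeq2 called, had 44.6, 51.2 and 42.5 CPM in KO and 177, 70.7 and 66.5 CPM in WT. The part of the keratinocyte reads was not tested.

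Of 12 laminins, integrins and partners of the dystrophin complex, 0 were called with edgeR (5 at an unadjusted p under 0.05), DESeq2 called 4 lower (4.89% of all genes), and 10 changes were below 0 (median −0.40). Itgb1, the common integrin beta chain, had 806, 833 and 875 CPM in KO and 857, 675 and 651 CPM in WT (0.20, SE 0.12, adjusted p = 0.405, edgeR). Lamc1, the common laminin gamma chain, had 344, 331 and 386 CPM in KO and 591, 440.5 and 438 CPM in WT (−0.47, SE 0.14, adjusted p = 0.167, edgeR). The groups overlapped for Itgb1 and not for Lamc1. Dmd, the dystrophin gene, chosen after its values were seen, had 22.0, 25.0 and 20.1 CPM in KO and 44.5, 34.4 and 47.2 CPM in WT (−0.91, SE 0.15, adjusted p = 0.063, edgeR). Muscle makes dystrophin, and the part of the muscle reads in these values was not tested.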
